A study of Mus musculus with 9 samples.

Results

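The 39 genes described here mark the phases of the cell cycle in mouse knee synovium. They are a fixed list of symbols, 16 for replication and 23 for mitosis, out of 54534 genes in the deposited gene list, and all 39 were found there. The replication genes were *Mcm2*, *Mcm3*, *Mcm4*, *Mcm5*, *Mcm6*, *Mcm7*, *Pcna*, *Rrm1*, *Rrm2*, *Tyms*, *Gins2*, *Uhrf1*, *Cdc6*, *Slbp*, *Hells* and *Cdc45*. The mitosis genes were *Mki67*, *Top2a*, *Ccna2*, *Ccnb1*, *Ccnb2*, *Cdk1*, *Birc5*, *Cenpf*, *Cenpe*, *Cenpa*, *Nusap1*, *Tpx2*, *Ube2c*, *Aurka*, *Aurkb*, *Bub1*, *Plk1*, *Cdc20*, *Kif11*, *Kif23*, *Tacc3*, *Smc4* and *Hmgb2*. They were read in 9 single-cell RNA sequencing libraries of live cells sorted from knees of *Gdf5-Cre;Tom;Pdgfrα-H2BGFP* mice, 11 weeks old in the steady state and 12 weeks old after injury, so that age and state cannot be told apart. In these mice Cre is driven by *Gdf5* regulatory sequence, which is active in the embryonic joint interzone, so that tdTomato (Tom) marks every later descendant of an interzone cell whatever its present type. Nuclear GFP reports *Pdgfrα*, a pan-fibroblast marker. The groups were Tom+ cells in the steady state (n = 2 libraries), Tom-GFP+ cells, which are *Pdgfrα*-expressing cells outside the *Gdf5* lineage, in the steady state (n = 1), Tom+ cells of injured knees (n = 4) and Tom-GFP+ cells of injured knees (n = 2). Injury was a scratch through the whole depth of the trochlear groove cartilage of the right knee, made through a medial parapatellar opening of the joint 6 days before. Each library came from a single mouse, and each Tom-GFP+ library shared its mouse with a Tom+ library, although the labels do not say with which.

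Before a cell divides it licenses its replication origins, copies its DNA in S phase and then, in G2 phase and mitosis, condenses and separates the chromosomes. *Mcm2* to *Mcm7* encode the ring of the replicative helicase, *Cdc6* loads it, *Cdc45* and *Gins2* belong to the active helicase, *Pcna* is the sliding clamp of the polymerases, *Rrm1*, *Rrm2* and *Tyms* make deoxynucleotides, *Uhrf1* and *Hells* maintain DNA methylation on the copied strand, and *Slbp* binds histone transcripts. Of the mitosis genes, *Cdk1* and its cyclins *Ccna2*, *Ccnb1* and *Ccnb2* drive entry, *Aurka*, *Aurkb*, *Plk1* and *Bub1* are mitotic kinases, *Cenpa*, *Cenpe* and *Cenpf* are centromere and kinetochore proteins, *Kif11*, *Kif23*, *Tpx2*, *Tacc3* and *Nusap1* act on the spindle, *Ube2c* and *Cdc20* serve the ligase that ends mitosis, and *Birc5* is a subunit of the chromosomal passenger complex. *Top2a*, *Smc4* and *Hmgb2* shape chromatin, and *Mki67* encodes the antigen Ki-67 used to stain dividing cells. Resting synovial fibroblasts of the adult joint are known to divide rarely.

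Replication genes are known targets of E2F factors, while many mitosis genes carry a cell cycle homology region (CHR), read by the DREAM complex and by the MuvB complex with B-Myb and FoxM1, often close to CCAAT boxes bound by NF-Y. RefSeq promoters on GRCm38.p6, from 250 bases before to 50 after the start, were given for 33 of the 39 genes (35 promoters, since *Mcm7* and *Uhrf1* have a pair each) and for 27025 genes in all. An E2F site (TTTGGCGC, TTTCCCGC, TTTGCCGC or TTTCGCGC on either strand) was found in 7 of 14 replication genes (50.0%), in 1 of 19 mitosis genes (5.26%) and in 2.6% of all genes. A CHR (TTTGAA or TTCGAA on either strand, the latter being its own reverse complement) was found in 3 of 14 replication genes (21.4%), in 14 of 19 mitosis genes (73.7%) and in 21.7% of all genes. CCAAT on either strand was found in 78.6%, 84.2% and 41.1%, and CHR and CCAAT together in 21.4%, 73.7% and 8.61%. A match is a run of letters and not a measured binding site. The 120 bases before the start, or before the annotated gene where that begins further upstream, are shown for a replication gene and for 4 mitosis genes. The levels of these genes differ in ways described further on. They were taken from windows with an E2F or CHR match, so the windows shown do not stand for all 39 genes. Bases are on the strand of the gene, 5′ to 3′, with the matches to the 3 motifs in capitals. ATTGG is CCAAT on the opposite strand, TTCAAA is TTTGAA on the opposite strand, and in *Mcm6* a pair of E2F matches overlap. Positions are *Mcm6* chr1:128359706-128359825 (minus strand), *Cdk1* chr10:69352939-69353058 (minus strand), *Cdc20* chr4:118437353-118437472 (minus strand), *Top2a* chr11:99024190-99024309 (minus strand) and *Hmgb2* chr8:57511723-57511842 (plus strand).
Mcm6: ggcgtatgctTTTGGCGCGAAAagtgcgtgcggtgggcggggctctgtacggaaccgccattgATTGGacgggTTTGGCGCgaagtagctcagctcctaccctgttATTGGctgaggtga
Cdk1: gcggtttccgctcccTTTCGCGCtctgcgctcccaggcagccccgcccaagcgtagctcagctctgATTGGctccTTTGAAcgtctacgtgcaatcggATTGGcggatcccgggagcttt
Cdc20: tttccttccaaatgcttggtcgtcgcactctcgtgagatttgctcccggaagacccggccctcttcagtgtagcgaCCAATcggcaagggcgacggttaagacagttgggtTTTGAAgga
Top2a: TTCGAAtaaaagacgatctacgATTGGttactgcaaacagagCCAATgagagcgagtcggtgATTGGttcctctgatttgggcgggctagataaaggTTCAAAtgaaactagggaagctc
Hmgb2: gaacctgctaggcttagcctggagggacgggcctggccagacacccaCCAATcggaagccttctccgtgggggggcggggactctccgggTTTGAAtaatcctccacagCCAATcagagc
*Cdk1* holds an E2F site as well as a CHR, whereas *Cdc20*, *Top2a* and *Hmgb2* hold a CHR and CCAAT without an E2F site in these letters.

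The libraries held 333 to 865 cell barcodes each and 5161 in all. Of these, 4788 passed a filter of at least 500 genes, at least 1000 unique molecular identifiers (UMIs, each counting a single captured RNA molecule) and at most 10% mitochondrial UMIs, and 4646 were stromal after immune, endothelial and red cells had been set aside by marker genes. Depth differed with state. The median was 8045 to 8679 UMIs per stromal cell in the 3 steady-state libraries and 12203 to 18570 in the 6 injured ones. Levels are therefore given in counts scaled to the library (CPM, UMIs per 1000000 UMIs of the stromal cells of a library or gate), and shares of cells after drawing 4000 UMIs from each cell. Pairs of libraries shared 0 to 2 barcodes. The sum of 8 immune marker genes in the stromal cells was 25.6 and 2.34 CPM in Tom+ and 3.33 in Tom-GFP+ cells of the steady state, 5.45 to 37.6 in the Tom+ injured libraries and 6.62 and 21.2 in the Tom-GFP+ injured ones, with 2 to 5 of the 8 markers at 0 in each library. The library with the highest sum of mitosis genes, Tom+ injured 1, had the lowest immune sum of its group. What part immune RNA had in the mitosis sums was not tested. tdTomato separated the sorts, at 3.65 to 7.81 UMIs per 10000 in the Tom+ cells with fewer than 3 mitosis genes and 0.0295 to 0.0694 in such Tom-GFP+ cells.

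Most mitosis genes were near their detection floor in the steady state, and their levels varied widely after injury. Summed over the 23 genes, they gave 58.2 and 119 CPM in the Tom+ steady-state libraries and 45.7 in the Tom-GFP+ one. *Hmgb2* and *Smc4* gave 141 of the 164 mitosis UMIs of Tom+ steady state 1, 224 of 560 in Tom+ steady state 2 and 114 of 151 in the Tom-GFP+ steady state. The injured libraries gave 1109, 589.6, 518 and 188 in Tom+ cells and 873 and 125 in Tom-GFP+ cells. All injured libraries lay above all steady-state ones, by little in Tom-GFP+ injured 2. The 16 replication genes spanned a narrower range, from 139, 166 and 142 CPM in the steady state to 372, 238, 186 and 183 in Tom+ injured and 281 and 136 in Tom-GFP+ injured libraries, the last of which lay below the steady state.

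Among the drivers of mitotic entry, *Cdk1* was at 0.355 and 4.67 CPM in Tom+ and 0 in Tom-GFP+ steady-state libraries, at 72.9, 32.2, 23.8 and 9.09 in Tom+ injured libraries and at 46.7 and 5.05 in Tom-GFP+ injured libraries. *Ccnb2* was at 0, 4.67 and 0.908 in the steady state, at 72.2, 39.9, 37.6 and 14.3 in Tom+ injured and at 66.3 and 8.08 in Tom-GFP+ injured libraries. *Ccnb1* was at 0, 0.849 and 0, then at 28.9, 14.8, 21.7 and 1.76, and at 30.5 and 5.55. For these 3 genes every injured library lay above every steady-state library of the same lineage. *Ccna2* was at 0, 5.95 and 0 in the steady state, at 51.1, 26.3, 15.6 and 3.53 in Tom+ injured and at 26.5 and 1.26 in Tom-GFP+ injured libraries. *Mki67* was at 0, 3.82 and 0.302, then at 28.3, 16.2, 9.08 and 3.12, and at 13.7 and 2.52. For *Ccna2* and *Mki67* the lowest Tom+ injured library, Tom+ injured 4, lay below Tom+ steady state 2, so the groups overlapped. A single cell with UMIs of all 23 mitosis genes gave 336 of the 560 mitosis UMIs of Tom+ steady state 2. How much of the *Ccna2* and *Mki67* values there came from it was not counted.

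*Top2a*, which untangles sister chromatids, was at 0, 4.25 and 0.302 CPM in the steady state, at 33.9, 16.3, 9.91 and 4.62 in Tom+ injured and at 19.6 and 0.505 in Tom-GFP+ injured libraries. *Birc5* was at 0.710, 6.80 and 1.21, then at 103.5, 49.5, 46.0 and 10.5, and at 92.4 and 7.57. *Cdc20* was at 0.710, 2.55 and 0.605, then at 40.03, 20.3, 25.3 and 5.16, and at 28.4 and 2.78. For all 3 genes Tom+ injured 1 was the highest and Tom-GFP+ injured 2 the lowest of the injured libraries. *Hmgb2* and *Smc4* differed from the other mitosis genes in that resting cells expressed them. *Hmgb2* was at 34.1, 28.5 and 22.7 in the steady state, at 120, 63.6, 54.9 and 36.5 in Tom+ injured and at 93.2 and 30.3 in Tom-GFP+ injured libraries. *Smc4*, a condensin subunit, was at 15.97, 19.1 and 11.8, then at 65.5, 52.4, 47.5 and 38.6, and at 57.2 and 31.8, with no overlap between the states in either lineage.

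**Figure D1:**
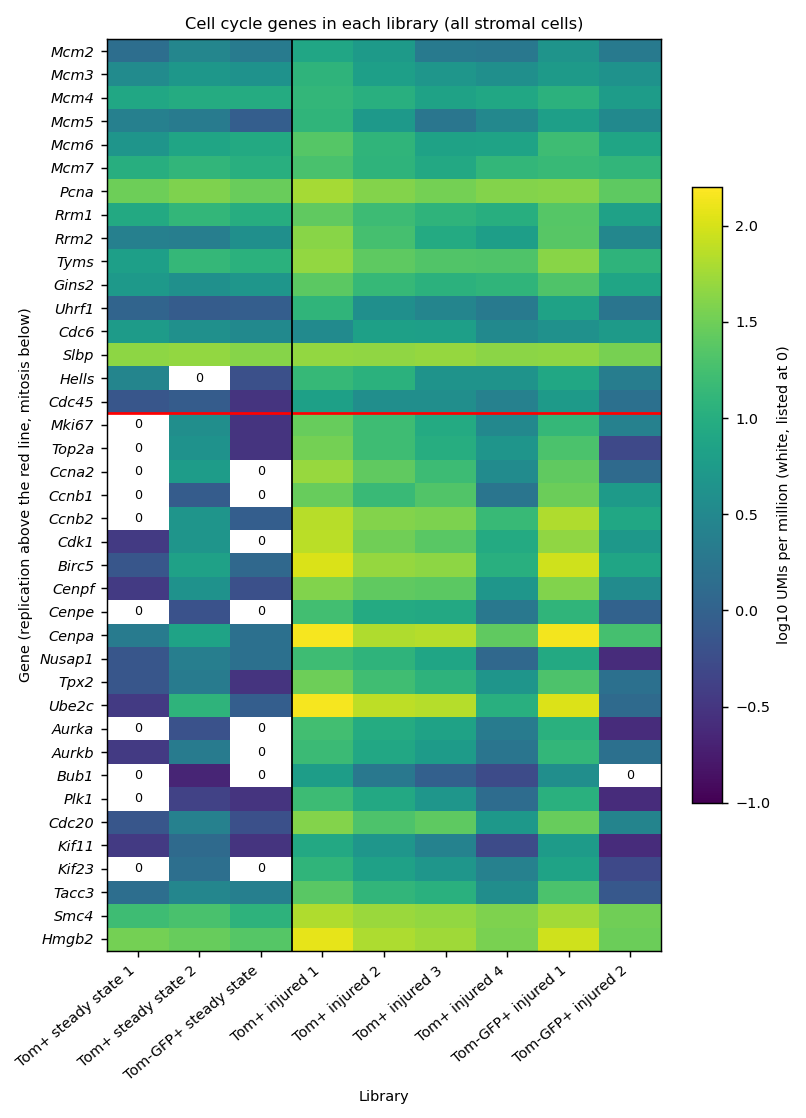
Colour map of the 39 genes (rows, replication above the red line and mitosis below) in the 9 libraries (columns, steady state left of the black line), with colour for log10 CPM in all stromal cells and white cells marked 0 where no UMI was counted. The zeros lie in steady-state libraries, apart from that of Bub1 in Tom-GFP+ injured 2, and the brightest mitosis rows are those of Tom+ injured 1 and Tom-GFP+ injured 1.

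The replication genes held some that followed the mitosis genes and some whose levels overlapped between the states. *Rrm2*, the regulated subunit of ribonucleotide reductase, was at 2.48, 2.34 and 3.93 CPM in the steady state, at 42.7, 18.2, 9.08 and 6.24 in Tom+ injured and at 23.6 and 3.03 in Tom-GFP+ injured libraries. *Mcm5* was at 2.48, 2.12 and 0.908, then at 12.6, 5.41, 1.79 and 3.12, and at 6.48 and 3.28. *Pcna* was at 30.9, 38.7 and 29.7, then at 58.9, 39.9, 33.7 and 40.6, and at 42.0 and 25.5. *Rrm2* had no overlap between the Tom+ states, and *Mcm5* and *Pcna* overlapped. *Slbp* was at 44.7, 48.6 and 41.4 in the steady state, at 48.4, 47.1, 49.4 and 43.6 in Tom+ injured and at 45.9 and 34.6 in Tom-GFP+ injured libraries. *Cdc6* was at 5.68, 4.03 and 3.33, then at 3.36, 6.60, 6.47 and 3.26, and at 4.14 and 5.55. Neither *Slbp* nor *Cdc6* separated the states in Tom+ cells, and in Tom-GFP+ cells both injured libraries lay above the steady state for *Cdc6* and on either side of it for *Slbp*. A sum over cells does not tell more dividing cells from more RNA per dividing cell.

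Tom+ injured cells were compared with Tom+ steady-state cells to ask which of the genes rose after injury, by edgeR's quasi-likelihood test on the summed counts of all 9 libraries with Benjamini-Hochberg adjustment over 15921 genes. All 39 genes had at least 20 UMIs and were tested. *Smc4* (ENSMUSG00000034349, chromosome 3, 69004738 to 69034623) rose by 1.57 on the log2 scale, with a standard error of 0.316 (adjusted p = 0.0217). *Cenpa* (ENSMUSG00000029177, chromosome 5, 30666777 to 30674830), the centromeric histone, rose by 3.99 (standard error 1.08, adjusted p = 0.0469), from 2.13 and 7.22 to 144, 66.3, 69.4 and 25.9 CPM. These were the 2 of 39 called, and 4.57% of all genes tested were called higher, so the count was near the background. *Gins2* (1.80, adjusted p = 0.0616), *Ccnb2* (3.96, adjusted p = 0.0646) and *Ccnb1* (5.03, adjusted p = 0.071) lay just beyond the threshold by the same edgeR test. Every mitosis gene had a positive fold change, from 1.19 in *Hmgb2* to 5.03, and 14 of 23 had an unadjusted p under 0.05. The median log2 fold change was 3.43 over the 23 mitosis genes, 1.01 over the 16 replication genes, of which 6 had such a p, and 0.0289 over all genes. The highest p-values were those of *Cdc6* (0.06, adjusted p = 0.938), *Slbp* (0.05, adjusted p = 0.879) and *Mcm4* (0.19, adjusted p = 0.767) in the edgeR test.

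By level alone, all 4 Tom+ injured libraries lay above both steady-state libraries for 17 of 23 mitosis genes and 6 of 16 replication genes (*Rrm2*, *Tyms*, *Gins2*, *Uhrf1*, *Hells* and *Cdc45*), against 20.6% of all genes tested. *Tyms*, the thymidylate synthase, was at 6.39 and 13.6 CPM in the steady state and at 47.4, 25.4, 21.5 and 20.9 after injury. Without either Tom+ steady-state library 0 of 39 were called by edgeR, without Tom+ injured 2 or Tom+ injured 3 there was 1, and without Tom+ injured 4 there were 6. DESeq2 called 17 of 39 higher, where 6.14% of all genes fitted were, and with genes of low counts kept in edgeR called 26, where 4.2% were. Outside *Hmgb2* and *Smc4* the mitosis genes held 23 UMIs in Tom+ steady state 1, against 835 to 13723 in the Tom+ injured libraries. Many thus reached the minimum for testing largely through their injured counts. No excess over the shares of all genes is therefore read from these numbers or from the 17 of 23 by level. In Tom+ steady state 2 a single FLS-like cell of 35452 UMIs, which held UMIs of all 23 mitosis genes, gave 336 of that library's 560 mitosis UMIs.

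Other genes of the same pathways were counted in 4 lists in the same comparison, where 4.57% of all genes tested were called higher. Of 36 replication factors outside the 39, 3 rose, namely *Ccne1* (log2 fold change 4.33), the cyclin that starts S phase, its relative *Ccne2* (3.04) and the origin recognition subunit *Orc6* (0.87). Of 51 spindle and kinetochore genes, 3 rose, namely *Cenpk* (3.20), the CDK-binding *Cks2* (3.05) and the kinesin *Kif22* (1.91). Of 33 tested regulators of entry and its brakes, 4 rose, which were the G1 kinases *Cdk4* (0.96) and *Cdk6* (1.84), the E2F factor *E2f3* (1.55) and *Cdkn2c* (1.12), which encodes an inhibitor of CDK4 and CDK6. Of 12 chromatin and tubulin genes high in dividing cells, the microtubule regulator *Stmn1* (3.14) rose. The median log2 fold changes of the 4 lists were 1.05, 2.80, 0.124 and 0.89.

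In Tom-GFP+ cells the comparison rests on a single steady-state library, whose spread was taken from the other groups. There 0 of 39 were called by edgeR, 7 of 23 mitosis and 1 of 16 replication genes had an unadjusted p under 0.05, and 0.264% of all genes were called higher, while DESeq2 called 5 of 39 and 2.22% of all genes. The steady-state library held 0 UMIs of 8 mitosis genes and 1 to 3 UMIs of 9 more. The number called is therefore not read against the share of all genes. Against a floor of 3 UMIs in that library, the mean of the injured libraries was at least 28.5-fold higher for *Cdk1*, at least 19.8-fold higher for *Ccnb1* and at least 15.3-fold higher for *Ccna2*. Over the 8 genes at 0 this bound ran from 2.13-fold to 28.5-fold. It rests on Tom-GFP+ injured 1, since Tom-GFP+ injured 2 alone gave 5.56, 6.12 and 1.39 times the floor for *Cdk1*, *Ccnb1* and *Ccna2*, and lay below it for *Aurka*, *Kif23* and *Bub1*. *Smc4* had the lowest p (log2 fold change 1.97, standard error 0.471, edgeR adjusted p = 0.0806), followed by *Cenpa* (5.76, adjusted p = 0.13 in the same edgeR test). *Cdc45* was at a single UMI in the steady state, so that its ratio of 13.6 had a counting interval of 2.32 to 547. The median log2 fold change of the mitosis genes was 5.41, or 4.25 with the genes at 0 set to their bound, that of the replication genes 0.692, and that of all genes 0.0271. *Slbp* (0.01), *Mcm4* (-0.04) and *Mcm3* (0.27) had the highest p-values. Without Tom-GFP+ injured 1 the median over the 39 genes was 0.803, and with all libraries it was 3.37. Among the brakes and entry genes, *Cdkn2c* (2.12), *Cdkn2b* (2.65) and *Cdk6* (2.37) rose, and 0 genes of the other 3 lists did by edgeR, where 2, 9 and 5 of them had an unadjusted p under 0.05.

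Between the lineages after injury, the spread among the libraries of each lineage was wider than the difference between them. Each Tom-GFP+ library shared its mouse with a Tom+ library, but the labels do not say which. The main fits of lineage and interaction therefore had no block for mouse, and differences between mice stayed in their spread. A lack of calls is not read as a lack of difference. Among the 39 genes 0 passed the edgeR test for Tom+ against Tom-GFP+ injured cells, 0 had an unadjusted p under 0.05 and DESeq2 called 0, while 0.0126% of all genes were called higher. Median log2 fold changes were 0.373 in the mitosis and 0.21 in the replication genes, against 0.0221 in all genes. *Slbp* (0.21), *Pcna* (0.34) and *Mcm3* (0.46) had the lowest p, and *Aurkb* (0.02), *Birc5* (0.04) and *Cdc6* (0.02) the highest. Without Tom-GFP+ injured 1 the median over the 39 genes was 2.34, and without Tom-GFP+ injured 2 it was -0.371. The difference between the injury effects of the lineages was tested as an interaction. It gave 0 calls by edgeR and 0 by DESeq2 among the 39, with 0 unadjusted p-values under 0.05, and 0.0% of all genes were called. The lowest unadjusted edgeR p-values were 0.264 for *Aurkb*, 0.316 for *Cdk1* and 0.388 for *Kif23*, all of which were at 0 UMIs in the Tom-GFP+ steady state, and the highest were those of *Rrm1*, *Uhrf1* and *Hells*.

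Cells were also read one by one, as the share of stromal cells with UMIs of 3 or more of the 23 mitosis genes after drawing 4000 UMIs from each cell. In the steady state it was met by 0 of 291 and 2 of 481 Tom+ cells (0.416%), and in Tom-GFP+ cells by 0 of 360, where the counts of 0 allow upper bounds of 1.26% and 1.02% (exact 95% Clopper-Pearson intervals, which cover counting error alone). In Tom+ injured libraries it was met by 134 of 750 cells (17.9%, interval 15.2% to 20.8%), 53 of 796 (6.66%, 5.03% to 8.62%), 19 of 455 (4.18%, 2.53% to 6.44%) and 12 of 555 (2.16%, 1.12% to 3.75%). In Tom-GFP+ injured libraries it was met by 48 of 436 (11.0%, 8.23% to 14.3%) and 3 of 257 (1.17%, 0.241% to 3.37%). The group means were 0.208% ± 0.294 (SD, n = 2), 7.72% ± 7.01 (SD, n = 4) and 6.09% ± 6.96 (SD, n = 2), so that the spread among injured mice was as large as their mean. Leaving out Tom+ injured 1 brought the Tom+ injured mean to 4.33%, and leaving out Tom-GFP+ injured 1 left 1.17%. Without the draw to equal depth the shares were 33.1%, 13.4%, 16.5% and 8.38% in Tom+ injured, 21.1% and 4.92% in Tom-GFP+ injured and 0.615%, 0.739% and 0.493% in steady-state libraries.

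Most injured cells held none of the mitosis genes. Of 3249 injured cells after the draw, 2074 held 0, 758 held 1, 148 held 2 and 269 held 3 or more, up to 20 in a single cell, and 46 lay at exactly 3. Of 1132 steady-state cells, 936 held 0. Cells with 3 or more mitosis genes were deeper before the draw than the rest in 6 of 6 injured libraries, with medians of 23869.5 against 17905.5 UMIs in Tom+ injured 1 and 24044.5 against 13392 in Tom-GFP+ injured 1. The part of depth in their share was not tested beyond the draw. In these cells tdTomato was at 2.5, 4.20, 4.34 and 5.21 UMIs per 10000 in the Tom+ injured libraries, against 3.65, 5.21, 7.81 and 3.95 in their other cells. It was at 0.208 against 0.0644 in Tom-GFP+ injured 1. In Tom-GFP+ injured 2, with 3 such cells, it was at 0 against 0.0295. The Tom-GFP+ values rest on few tdTomato UMIs, and no order is read from them. Before the draw, cells with 3 or more mitosis genes held 96.0%, 90.2%, 88.2% and 67.0% of the mitosis UMIs of the Tom+ injured libraries, 95.1% and 46.8% of the Tom-GFP+ injured ones, and 3.66%, 62.3% and 5.96% of the steady-state ones. Immune cells, which were set aside, met the criterion in 11 of 71 cells of the Tom+ injured libraries (15.5%), and a single immune cell of Tom+ steady state 1 held 51.7% of the mitosis UMIs of all kept cells there.

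Each gene was then asked how strictly it was kept to such cells. For a gene, the cells counted were those with UMIs of 3 or more of the other mitosis genes, which made up 8.28% of injured stromal cells over the 23 genes together. Of the UMIs of *Mki67*, 96.5% lay in such cells, as did 96.7% of *Bub1*, 94.9% of *Plk1*, 94.7% of *Ube2c* and 94.5% of *Ccna2*. The median over the 23 mitosis genes was 90.05%, and 12 genes lay above 90%. The 23 genes include those that chose the cells, so this is a description of how they go together and carries no test. The exceptions were *Smc4* at 34.5% and *Hmgb2* at 50.8%, followed by *Aurkb* (74.1%), *Ccnb2* (74.5%) and *Tacc3* (76.9%). The replication genes took no part in choosing the cells. Their median was 27.6%, from 11.1% in *Slbp*, 14.0% in *Cdc6*, 14.3% in *Mcm4*, 15.99% in *Pcna* and 16.4% in *Mcm7* up to 50.0% in *Cdc45*, 53.6% in *Mcm5* and 69.0% in *Rrm2*. These pooled values come from libraries that differ in their share of such cells. Over the libraries with at least 10 UMIs of the gene, *Rrm2* ran from 16.7% to 80.3%, *Hmgb2* from 2.94% to 68.3%, *Smc4* from 6.33% to 51.2%, *Slbp* from 0% to 24.4% and *Mki67* from 94.9% to 100%.

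**Figure D2:**
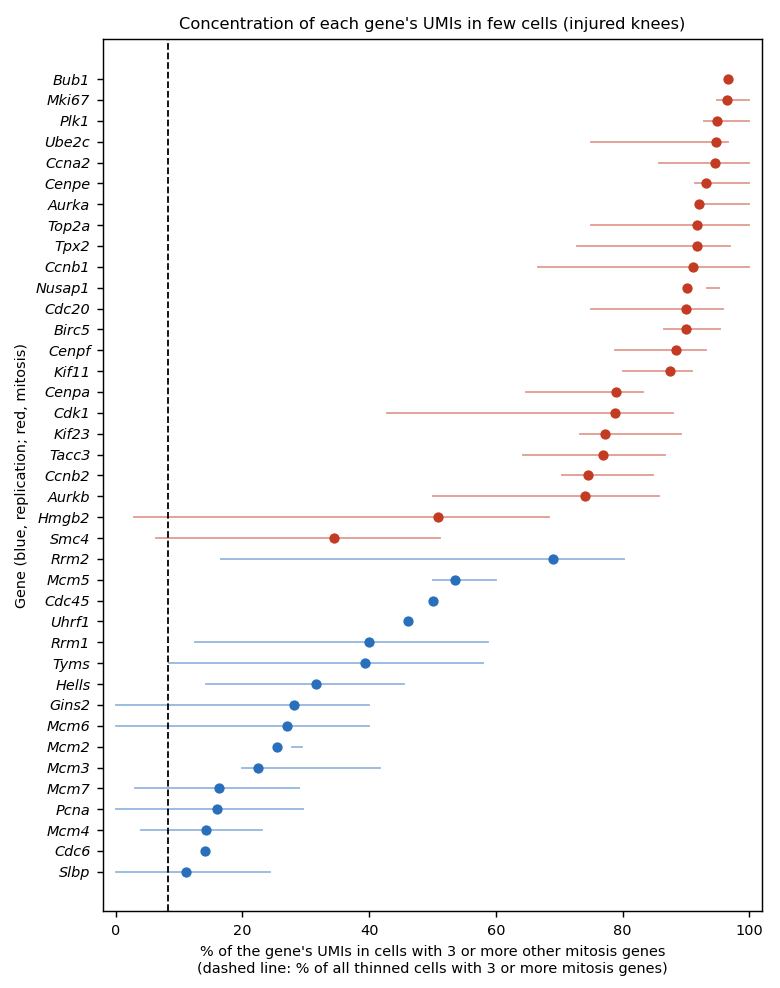
Percent of each gene's UMIs, after drawing 4000 UMIs per cell, that lay in injured stromal cells with 3 or more other mitosis genes, with dots for the pooled libraries and lines over the libraries with at least 10 such UMIs, so that a pooled dot can lie outside its line. The dashed line marks the 8.28% of cells that met the criterion, and mitosis genes cluster above 70% apart from Hmgb2 and Smc4.

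Cells were next divided into phase classes by whether they held 3 or more mitosis genes and whether they held 3 or more replication genes after the draw. Of the injured stromal cells 2895 met neither, 85 held replication genes only, 69 both and 200 mitosis genes only. The share with replication genes only was 0.832% to 2.06% in steady-state and 0.778% to 4.27% in injured libraries, an overlapping range. Cells of both classes were 0 in all 3 steady-state libraries and 0 to 5.07% in injured ones, which also overlapped, at 0 in Tom-GFP+ injured 2. Only 2 steady-state cells held 3 or more mitosis genes after the draw, so few could fall in that class. Before the draw, an FLS-like cell of Tom+ steady state 2 held 23 mitosis and 12 replication genes. Of the cells with mitosis genes, 28.4%, 26.4%, 21.1% and 33.3% in the Tom+ injured libraries also held replication genes, and 18.8% and 0% in the Tom-GFP+ ones. Before the draw, cells of both classes had a median of 34684.5 UMIs in Tom+ injured 1, against 20707.5 with mitosis genes only, 24287.5 with replication genes only and 17656 with neither. They were also the deepest class in Tom+ injured 2 and Tom-GFP+ injured 1, but not in Tom+ injured 3 (18902 against 20987 with mitosis genes only) or Tom+ injured 4 (15386 against 15764.5).

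**Figure D3:**
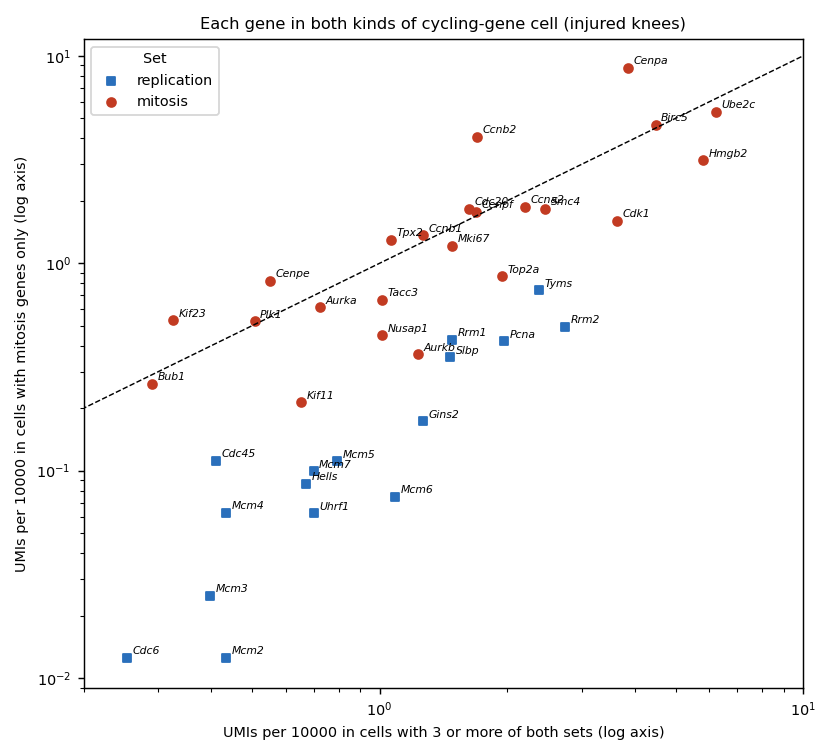
UMIs per 10000 of each of the 39 genes in injured stromal cells with mitosis genes only (vertical, log axis) against cells with 3 or more of both sets (horizontal, log axis), each gene left out of the classing of its own cells, with the dashed line where both are equal. All 16 replication genes (squares) lie below the line, where the choice of cells by the other replication genes tends to place them. Cenpa and Ccnb2 lie farthest above it among the mitosis genes (circles).

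The mitosis genes differed in where they peaked when each gene was left out of the classing of its own cells. *Cenpa* was at 8.78 UMIs per 10000 in cells with mitosis genes only against 3.86 in cells of both classes, and *Ccnb2* at 4.08 against 1.70, each higher in the former in 3 of the 3 libraries with at least 8 cells of each class. The opposite order held for *Hmgb2* (3.14 against 5.81), *Cdk1* (1.60 against 3.64), *Top2a* (0.867 against 1.95), *Aurkb* (0.364 against 1.23), *Kif11* (0.214 against 0.652) and *Smc4* (1.83 against 2.46), also in 3 of 3 libraries. *Birc5* (4.65 against 4.49), *Ccnb1* (1.36 against 1.27) and *Mki67* (1.21 against 1.49) were near equal in both classes and did not keep an order in all 3. Of the 23 mitosis genes, 13 were highest in cells of both classes and 10 in cells with mitosis genes only, while all 16 replication genes were highest in cells of both. Those cells were chosen by holding the other replication genes, so the order of the 16 is a description and carries no test. Among replication genes, *Slbp* was at 1.35 in cells with replication genes only and at 1.47 in cells of both, against 0.429 in cells with neither. *Rrm2* by contrast was at 0.366, 2.74 and 0.0319.

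Genes of the 4 lists outside the 39 took no part in the classing. Of 51 spindle genes 33 were highest in cells of both classes and 18 in cells with mitosis genes only, and of the replication factors 30 were highest in cells of both, 4 with replication genes only and 2 with mitosis genes only. *Cks2* (6.11 against 4.64), the securin *Pttg1* (2.80 against 1.20) and *Cdca3* (1.68 against 1.45) were higher in cells with mitosis genes only than in cells of both classes in 3 of 3 libraries. *Tk1* (1.09 against 3.26), the thymidine kinase, *Gmnn* (0.225 against 1.12), the inhibitor of origin licensing, and *Fbxo5* (0.0625 against 0.507), an inhibitor of the anaphase-promoting complex, were lower there in 3 of 3. *Cdt1*, the licensing factor that Gmnn protein binds, was highest in cells with replication genes only (0.412 against 0.181 in both). Of 34 entry genes and brakes 10 were highest in cells with neither, 8 with replication genes only, 13 with both and 3 with mitosis genes only. Of the 10, *Cdkn1c* was at 1.09 in cells with neither, 0.618 with replication genes only, 0.109 with both and 0.163 with mitosis genes only, and *Gas1* was at 3.11, 2.56, 1.59 and 1.65.

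The cells were gated by marker genes of which none is among the 39. FLS-like cells had *Prg4*, lubricin, without *Thy1* and with at least 2 of 4 lining markers. A second gate took *Prg4*+ cells without *Thy1* and without the lining markers *Clic5*, *Tspan15* and *Htra4*. Other gates took *Lrrc15*+ *Adam12*+ cells, universal-fibroblast-like cells (at least 4 of 6 markers, among them *Dpp4* and *Cd248*), tenocyte-like, chondrocyte-like, osteoblast-like and mural-like cells and the other *Thy1*+ or *Cd34*+ fibroblasts. Of the stromal cells, 899 (19.35%) met more than 1 gate, without counting the last gate, that of *Thy1* or *Cd34*. Such cells were placed by a fixed order. *Prg4* was at 383 UMIs per 10000 in FLS-like cells and 33.6 in the *Prg4*+ cells without lining markers. The latter lay near the 32.6 of universal-fibroblast-like cells and below the 49.0 of chondrocyte-like and 53.6 of ungated cells. Its *Prg4* level thus did not set the *Prg4*+ gate apart from these. *Lrrc15* and *Adam12* were at 0.943 and 0.786 in the *Prg4*+ gate, 0.0486 and 0.011 in FLS-like and 1.98 and 1.23 in *Lrrc15*+ *Adam12*+ cells. The chondrocyte-like gate was the highest of all gates in its marker *Acan* (12.5 against 1.78 in the osteoblast-like gate). It was also the highest in *Sox9* (5.99 against 1.11), which is in no gate. It carried *Ibsp*, a bone matrix gene, as well, at 62.8 against 60.1 in the osteoblast-like gate. Cells that met both of these gates were placed in the chondrocyte-like one.

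Cells with 3 or more mitosis genes were found in every stromal gate of the Tom+ injured knees. In *Prg4*+ cells without lining markers the share was 39.2%, 9.30%, 0% and 11.8% in the 4 Tom+ injured libraries (12 to 97 cells a library) and 33.3% and 0% in the Tom-GFP+ ones. In *Lrrc15*+ *Adam12*+ cells it was 25.0%, 13.2%, 17.1% and 2.94% in Tom+ and 20.8% and 0% in Tom-GFP+ injured libraries. In FLS-like cells it was 6.14%, 7.98%, 3.59% and 3.31%, and 19.2% and 8.57%. FLS-like cells thus held the narrowest range of these gates over the Tom+ injured mice, 3.31% to 7.98%, while the *Prg4*+ gate ran from 0% to 39.2%. In the other *Thy1*+ or *Cd34*+ fibroblasts the share was 14.0%, 3.67%, 4.20% and 0.995%, and 3.87% and 0%. Pooled over Tom+ injured libraries it was 4.52% of 155 universal-fibroblast-like cells, 8.24% of 255 tenocyte-like, 10.0% of 90 chondrocyte-like, 5.797% of 69 osteoblast-like and 14.7% of 75 mural-like cells. Without Tom+ injured 1 these shares were 1.65%, 3.73%, 9.52%, 6.82% and 2.86%. When the gates were read on cells thinned to 4000 UMIs, so that a deeper cell had no better chance to show a marker, the *Prg4*+ cells without lining markers held 35.2%, 9.09%, 10.8% and 5.77% in Tom+ and 26.9% and 0% in Tom-GFP+ injured libraries. This gate asks for absent markers, so that thinning enlarged it, to 210 cells from 97 in Tom+ injured 1, and FLS-like cells then held 5.44%, 6.86%, 2.65% and 3.42%. *Lrrc15*+ *Adam12*+ cells then held 15.2%, 11.1% and 0% in the 3 Tom+ injured libraries with 10 or more such cells. In the steady state, 2 of 62 Tom+ FLS-like cells and 0 cells of any other stromal gate met the criterion. With gates read on thinned cells, it was met in Tom+ steady state 2 by 1 of 51 universal-fibroblast-like, 1 of 66 ungated and 0 of 29 FLS-like cells.

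**Figure D4:**
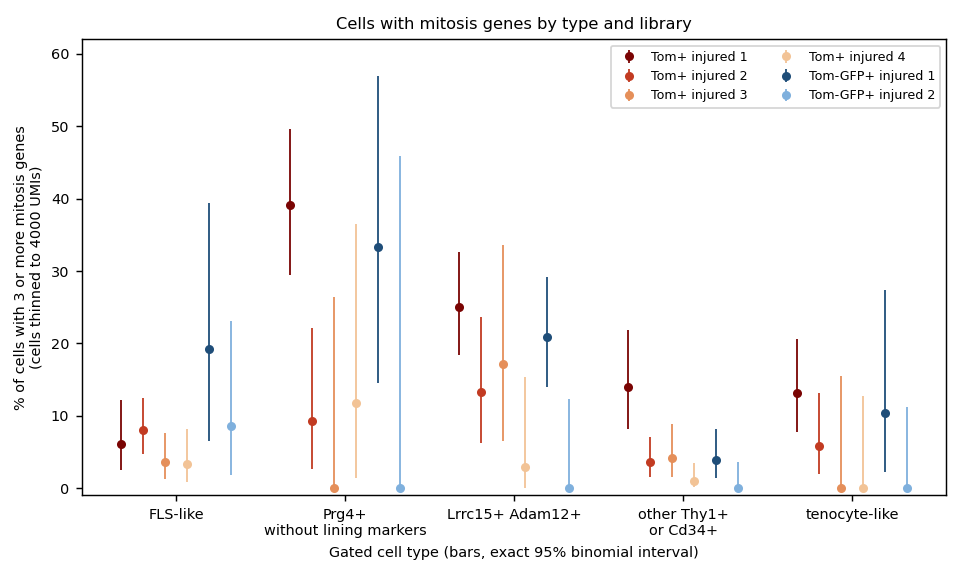
Percent of cells with 3 or more mitosis genes after drawing 4000 UMIs per cell, in 5 gated cell types, with a point for each injured library and bars for the exact 95% binomial interval. Tom+ injured 1 and Tom-GFP+ injured 1 reach above 30% in Prg4+ cells without lining markers, and FLS-like cells lie below 10% in all Tom+ injured libraries.

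Tom+ injured and steady-state cells were compared within each gate that had at least 10 cells in 2 or more libraries of each state. This asked whether the genes differed among cells of a single gate. The other *Thy1*+ or *Cd34*+ gate took what the earlier gates had left. Its median depth was 7813 UMIs in Tom+ steady-state and 11591 in Tom+ injured cells. A change in the mix of cells within a gate was not separated from a change within a type. In the other *Thy1*+ or *Cd34*+ fibroblasts 38 of the 39 genes reached 20 UMIs, and 5 were higher after injury, all of them mitosis genes, where 3.9% of all genes tested were. Of the 38, 9 had 0 UMIs and 13 had 1 to 3 in the steady state, *Birc5*, *Cdk1* and *Ube2c* among them, and so were tested because of their injured counts, and the number called is not read against that share. *Smc4* was at 11.5 and 6.75 CPM in the steady state and at 45.4, 29.8, 40.9 and 23.8 after injury (log2 fold change 1.90, edgeR adjusted p = 0.0136). *Cenpa* was at 3.06 and 0 and then at 110.4, 37.6, 60.9 and 9.10 (5.17, edgeR adjusted p = 0.0336). *Cdk1* gave 0 and 1 UMIs against 79, 45, 53 and 11 (adjusted p = 0.0265), *Ube2c* 0 and 1 against 120, 87, 178 and 5 (adjusted p = 0.0474) and *Birc5* 0 and 0 against 128, 43, 101 and 15 (adjusted p = 0.0369, all by edgeR). The states did not overlap for any of the 5. These genes were picked by the test, and *Birc5*, *Cdk1* and *Ube2c* had 0 or 1 UMI in each steady-state library. The share of all genes without overlap is not given for this gate, so the separation is not read as support. *Slbp* (0.0014), *Mcm4* (0.16) and *Rrm1* (0.27) had the highest p-values. Without either steady-state library 0 were called, without Tom+ injured 2 or 3 there was 1, and without Tom+ injured 4 there were 16. The share of all genes called is not given for these smaller fits, so their counts are not read as support. Of the lists, *Tk1* and *Lig1* (2 of 30 replication factors), *Smc2*, *Cks2*, *Cks1b*, *Spc24* and *Ckap2* (5 of 32 spindle genes tested), *Cdk6*, *Cdkn2c* and *Cdk4*, and *Stmn1* and *H2afz* rose, while *Gas1* fell by 1.08 on the log2 scale.

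In universal-fibroblast-like cells 29 of the 39 genes reached 20 UMIs and 5 were higher, where 1.37% of all genes were. Of the 29, 8 had 0 UMIs and 8 had 1 to 3 in the steady state, so that they were tested because of their injured counts and their number is not read against that share. Among the called genes these are *Aurka*, *Cenpf* and *Ccnb2*. *Smc4* was at 13.03 and 10.7 CPM in the steady state and at 45.2, 43.9, 33.0 and 24.6 after injury (log2 fold change 1.55, edgeR adjusted p = 0.0351). *Cenpa* gave 2 and 2 UMIs against 56, 27, 37 and 1 (adjusted p = 0.0373). *Aurka* gave 0 and 0 against 10, 6, 4 and 4 (adjusted p = 0.0178), *Cenpf* 0 and 0 against 10, 12, 9 and 1 (adjusted p = 0.0378) and *Ccnb2* 0 and 0 against 37, 12, 21 and 0 (adjusted p = 0.0466, all by edgeR). *Ccnb2* overlapped between the states, since Tom+ injured 4 also held 0. *Pcna* (-0.09), *Mcm4* (0.10) and *Slbp* (0.08) had the highest p-values. With 1 more marker required for a gate, or with gates read on thinned cells, 0 were called, as without either steady-state library or without Tom+ injured 2. Without Tom+ injured 3 there was 1 and without Tom+ injured 4 there were 17. The share of all genes called is not given for these fits either, so their counts are not read as support. Of the lists, *Cks2*, *Cdca8*, *Cdkn2c*, *Cdk6*, *Stmn1* and *Hmgn2* rose.

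In osteoblast-like cells, read in 2 injured libraries, 12 of the 39 genes reached 20 UMIs and 2 were higher, where 0.981% of all genes were. Both had 0 UMIs in the steady state and were tested because of their injured counts, so that their number is not read against that share. After the draw, 1 of 25 and 3 of 35 osteoblast-like cells of these libraries held 3 or more mitosis genes. *Birc5* gave 0 and 0 UMIs in the steady state against 13 and 41, and *Ube2c* 0 and 0 against 10 and 34 (edgeR adjusted p = 0.031 and 0.043). *Tk1*, *Prc1* and *Stmn1* of the lists rose with them, and *Slbp*, *Pcna* and *Smc4* did not pass. With 1 more marker or with thinned gates 0 were called, as without either steady-state library or without Tom+ injured 2, and without Tom+ injured 1 there were 5. No share of all genes is given beside the counts of these alternative fits. In FLS-like cells 0 of 37 tested genes were called by edgeR and 0 by DESeq2, 1 had an unadjusted p under 0.05, and 0.519% of all genes were called higher. That gene was *Hells*, with 0 and 0 UMIs in the steady state against 15, 18, 9 and 11 (adjusted p = 0.137), followed by *Gins2* (1.36) and *Mcm4* (1.52). *Mcm2*, *Cenpf* and *Mcm7* had the highest p-values. The single cell of Tom+ steady state 2 described above lies in this gate, where *Ccnb2* gave 0 and 22 UMIs in the steady state. The median log2 fold change of the 37 genes was 0.212, and 6.27 without Tom+ steady state 2. Leaving out that library removed all of its 41 FLS-like cells. It left a single steady-state library of 23 such cells at 70.8 CPM of mitosis genes, so 6.27 rests on counts near the floor. After the draw, 2 of 62 steady-state (3.23%) and 34 of 615 injured Tom+ FLS-like cells (5.53%) held 3 or more mitosis genes. None of the 4 lists had a gene called in FLS-like cells, with 6, 2, 3 and 3 genes at an unadjusted p under 0.05.

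Among Tom+ injured cells, *Prg4*+ cells without lining markers were compared with FLS-like cells of the same library, with library as a block. Summed mitosis genes were at 1716 against 363 CPM in Tom+ injured 1, 883 against 726 in Tom+ injured 2, 113 against 408.5 in Tom+ injured 3 and 482 against 244 in Tom+ injured 4, the third resting on 12 *Prg4*+ cells. In the Tom-GFP+ injured libraries, which were not in the test, they were at 2447 against 1182 and 52.3 against 325. The order was thus the same in 3 of 4 Tom+ and 1 of 2 Tom-GFP+ libraries. By edgeR 6 of 39 genes were higher in the *Prg4*+ cells, against 5.8% of all genes called higher and 5.93% lower. They were *Cdk1* (log2 fold change 1.45, standard error 0.370, adjusted p = 0.0147), *Ccna2* (1.28, adjusted p = 0.0223), *Cenpe* (1.63, adjusted p = 0.0465) and *Top2a* (1.55, adjusted p = 0.0482) among mitosis genes, and *Tyms* (0.98, adjusted p = 0.0398) and *Rrm2* (1.18, adjusted p = 0.0497) among replication genes. *Cdk1* was at 101 against 15.8 CPM in Tom+ injured 1, 62.6 against 30.2 in Tom+ injured 2, 20.6 against 22.96 in Tom+ injured 3 and 8.76 against 6.28 in Tom+ injured 4. *Gins2* (0.06), *Pcna* (-0.14) and *Smc4* (0.18) had the highest p-values, and *Mki67* (1.37, adjusted p = 0.0927) and *Birc5* (0.93, adjusted p = 0.197) did not pass. The median was 0.994 over mitosis, 0.836 over replication and -0.0566 over all genes.

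The count of 6 depended on settings in both directions. Without Tom+ injured 1, and by DESeq2, 0 were called, and without Tom+ injured 3 there were 10. For these fits the share of all genes called is not given. With gates read on thinned cells there were 33, where 12.4% of all genes were called higher, and with a *Prg4* minimum of 10 UMIs per 10000, added after the data were seen, 25, where 6.22% were. Read on thinned cells, the *Prg4*+ gate held 210, 121, 65 and 52 cells in Tom+ injured 1 to 4, against 97, 52, 12 and 22 before. The 33 calls thus concern a larger and different set of cells. Median depth was 22793 against 17605.5 UMIs in Tom+ injured 1 but 11406.5 against 15577, 15092.5 against 18419.5 and 12856.5 against 17138 in the others, and its part was not tested further. Of the lists, *Dut* (1.31) and *Clspn* (1.96), *Cks1b* (1.24) and *Ckap2l* (1.55), and *Hmgn2* (0.81) and *Hmgb1* (0.70) were higher, and *Kif22* (-1.94) and *Tubb4b* (-1.45) lower in the *Prg4*+ cells. Among the brakes, *Cdkn1c* (3.55), the inhibitor p57, and *Btg1* (0.91) were higher there, and *Cdkn1a* (-0.76), the inhibitor p21, and *Gas1* (-0.93) were lower.

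*Lrrc15*+ *Adam12*+ cells were compared in the same way with the other *Thy1*+ or *Cd34*+ fibroblasts of the Tom+ injured libraries. Summed mitosis genes were at 1742 against 698, 1146 against 286, 1442 against 527.5 and 270.5 against 96.7 CPM, and in the Tom-GFP+ injured libraries at 1096 against 279 and 89.4 against 76.8, so that they were higher in *Lrrc15*+ *Adam12*+ cells in 6 of 6 libraries. By edgeR 26 of 39 genes were higher, against 2.76% of all genes called higher and 3.68% lower. They were 22 of the 23 mitosis genes, all but *Bub1* (log2 fold change 1.72, adjusted p = 0.0503), and 4 of the 16 replication genes, *Tyms* (0.90), *Mcm6* (1.02), *Rrm2* (1.10) and *Rrm1* (0.74). *Tpx2*, the spindle assembly factor that activates Aurora A, was at 55.0 against 17.1, 33.4 against 6.54, 43.3 against 12.1 and 10.2 against 2.60 CPM. Its log2 fold change was 1.88, with a standard error of 0.197 and an edgeR adjusted p of 7.96e-05. *Nusap1* (2.69, adjusted p = 0.000124), *Birc5* (1.63, adjusted p = 0.000127), *Mki67* (2.18, adjusted p = 0.000567), *Ccnb1* (1.53, adjusted p = 0.00061), *Hmgb2* (0.92, adjusted p = 0.00068) and *Smc4* (0.81, adjusted p = 0.0054) followed in the same edgeR test. *Cdc6* (-0.01), *Mcm7* (-0.12) and *Mcm2* (0.49) had the highest p-values. The median was 1.69 over mitosis, 0.623 over replication and -0.0218 over all genes.

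The calls rest on the library block, since the fit without it called 0 of 39 by edgeR, with a median of 1.52. None of the 39 genes was called when the gates were read at equal depth, which also changed the cells compared. A cell enters the *Lrrc15*+ *Adam12*+ gate by a UMI of each gene, and its cells were deeper, at medians of 22587.5 against 14794.5, 16129.5 against 10499, 20912 against 12912 and 13286 against 10667 UMIs. With gates read on cells thinned to 4000 UMIs, 0 of 39 were called by edgeR and the median over the 39 genes was -0.235 instead of 1.47. So read, the gate held 33, 18 and 12 cells in Tom+ injured 1, 2 and 4. In Tom+ injured 1 it had held 152 cells, and the comparison gate grew from 114 to 209 cells. Shares of cells with 3 or more mitosis genes were then 15.2% against 12.9%, 11.1% against 6.38% and 0% against 0.952% in these libraries. The parts of depth and of this exchange of cells were not tested. Of the lists, 27 of 51 spindle genes were higher (*Cks2* 1.26, *Spc24* 1.68, *Cdca8* 1.40), as were 5 of 34 replication factors (*Tk1* 1.23, *Asf1b* 1.91, *Gmnn* 1.40) and 9 of 12 chromatin and tubulin genes (*Stmn1* 1.07, *Tuba1b* 0.74, *H2afz* 0.58). Of the entry genes and brakes, *Rbl1* (1.92) was higher and *Cdkn1c* (-1.02), *Myc* (-1.13), *Gas1* (-0.69), *Btg2* (-0.95) and *Rbl2* (-0.95) were lower. In these main fits *Cdkn1c* lay higher in the *Prg4*+ cells without lining markers and lower in the *Lrrc15*+ *Adam12*+ cells, each against its own comparison cells. Genes of the lists were not followed with gates read on thinned cells, so these directions are not known at equal depth.

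**Figure D5:**
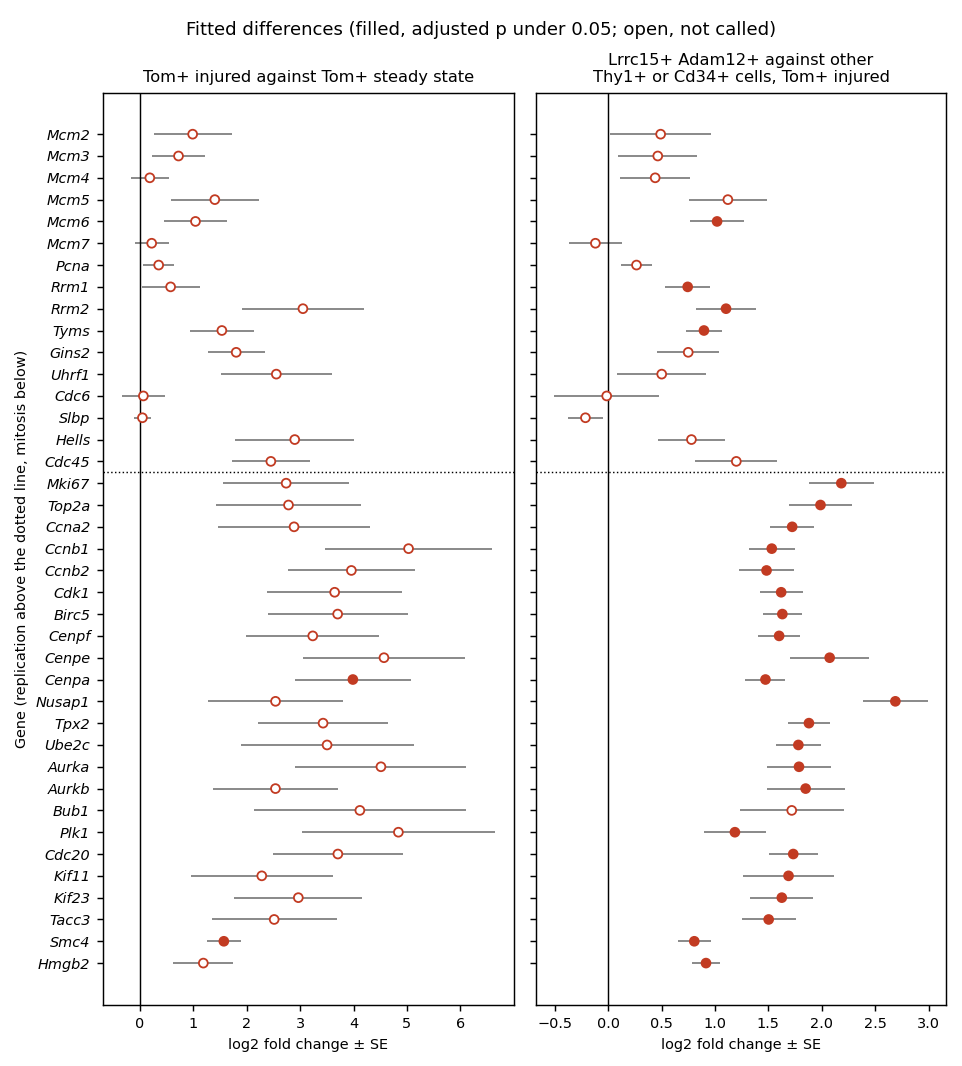
Log2 fold changes of the 39 genes for Tom+ injured against steady-state cells (left) and for Lrrc15+ Adam12+ cells against other Thy1+ or Cd34+ fibroblasts of Tom+ injured knees (right), with standard errors as bars and filled points where the adjusted p passed 0.05. The 23 mitosis genes lie right of 0 in both panels, with 2 filled on the left and 22 on the right, where the gates were not levelled for depth.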

How the data were processed

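Libraries were made with the 10x Genomics 5′ kit (version 2) and sequenced on a NextSeq 500. The deposited matrices hold UMI counts per gene and cell, made by the authors with Cell Ranger against GRCm38 (release p6 of the assembly in the submitters' processing notes), with no further normalisation. A version, 3.0.2, stands in the headers of 5 matrices, and 4 libraries use an older form of the gene list. Reads, strand and the study's full methods were not used here.

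Barcodes were kept from 500 genes and 1000 UMIs upwards if mitochondrial genes took no more than 10% of the UMIs. Types were gated by fixed marker minimums in a fixed order, with none of the 39 genes in a gate. Counts were summed per library, genes with at least 20 UMIs were fitted with edgeR 4.0.16 (quasi-likelihood, TMM, Benjamini-Hochberg adjustment, false discovery rate 0.05) in R 4.3.3, and DESeq2 1.42.0 was an alternative. Comparisons of states and lineages over all stromal cells used all 9 libraries in a single fit, with no block for the mice that the lineages shared. Those within a gate used the Tom+ libraries with at least 10 such cells, and comparisons of gates used library as a block. A single-library group takes its spread from the others. The labels do not name the mouse behind each library, so p-values measure the spread between these libraries. Depth was 2818399 to 14863023 stromal UMIs per library, so that a floor of 3 UMIs was 0.202 to 1.06 CPM. For shares, cells were thinned at random to 4000 UMIs, which left out 265 stromal cells (94 Tom+ steady state, 46 Tom-GFP+ steady state, 61 Tom+ injured and 64 Tom-GFP+ injured). Free RNA was not removed. Scrublet (scanpy 1.11.5) called 47 doublets, which were kept, and leaving out the top 5% of scores was an alternative. The fitting script was first tested on simulated data with known changes. Changes of 2-fold were recovered for 6% of changed genes in the Tom+ comparison of states, 0% in the Tom-GFP+ one and 14% between lineages. Changes of 4-fold were recovered for 66%, 26% and 68%, and of 16-fold for 92%, 76% and 96%. A gene that was not called is therefore not read as unchanged.

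Same-numbered libraries were checked for pairing by the correlation of their deviations from group means, which was 0.0381, 0.0579, 0.248 and 0.0625. The numbers were not taken to pair the libraries. Promoters came from RefSeq (GRCm38.p6) and gene positions from GENCODE vM21. The 39 genes, the 4 lists and the gates were chosen with earlier results of these data known. Values in every library are given for 15 genes, and for each comparison the 3 genes with the lowest and the 3 with the highest p are named, with the called genes where few. Of each list the 3 genes with the lowest p and called genes against the majority are named, 6 at most, and any further gene named was chosen after its values were seen. Alternatives were other normalisations, tests, filters, gates, blocks and left-out libraries.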

Additional observations from a re-analysis of the deposited data

Results flagged for a closer look

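*Tyms*, the thymidylate synthase, stood apart in a single library. In the 4 Tom+ injured libraries it was at 47.4 CPM (UMIs scaled to the stromal UMIs of the library) in Tom+ injured 1, with the next library at 25.4 and the lowest at 20.9, so that the gap to the nearest library was 0.831 of the whole range, just above the 95% limit for 4 values. This was 1 of 42 such tests, of which chance alone would mark about 1 in 20.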

How the results depend on the processing

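Of 651 values of single genes under an alternative, 593 kept their direction, and none of those that turned passed the test in the new direction. Depth limits the Tom-GFP+ steady state, where 8 of the 23 mitosis genes had 0 UMIs and 9 had 1 to 3. Most counts below stand without the share of all genes called under the same alternative. A larger count is therefore not read as more support, nor a smaller one as less. For Tom+ injured against steady-state cells, 17 genes were called by DESeq2, 26 without the filter on low counts, 11 with a replicate block, 10 with the form of the gene list as a block, 5 with Tom+ libraries alone and 8 without the 3 lining and *Lrrc15* gates (added after the data were seen), and 0 to 6 without 1 library. In comparisons of states the replicate block joined libraries by their number alone, which was not taken to pair them. For Tom-GFP+ cells, DESeq2 called 5 and no filter gave 10. In FLS-like cells, no filter gave 1 and thinned gates 3. In other *Thy1*+ or *Cd34*+ cells, DESeq2 called 14, no filter 24, 1 more marker 9, thinned gates 9 and the replicate block 22, and 0 to 16 were called without 1 library. In universal-fibroblast-like cells, no filter gave 23, 1 more marker 0, thinned gates 0 and the replicate block 18, with 0 to 17 without 1 library. In osteoblast-like cells, no filter gave 13, 1 more marker 0, thinned gates 0 and the replicate block 7, with 0 to 5 without 1 library. For *Prg4*+ against FLS-like cells, DESeq2 called 0, no filter 15, without the highest Scrublet scores 2, thinned gates 33, no replicate block 2 and a *Prg4* minimum of 10 (added) 25, with 0 to 10 without 1 library. For *Lrrc15*+ *Adam12*+ cells, thinned gates and the fit with no replicate block each gave 0, and 19 to 26 were called without 1 library. The share of cells with mitosis genes in the Tom+ steady state was 0.907% at 8000 UMIs, 0.677% unthinned and 1.66% for 2 or more genes, and in Tom+ injured cells 17.8% unthinned.

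Some fold changes turned sign, among them 5 called ones, all under thinned gates. In Tom+ cells *Slbp* was -0.0126 with Tom+ alone, and *Cdc6* was -0.0307 without the highest Scrublet scores, -0.43 with the gene list block and -0.14 without the 3 gates. In Tom-GFP+ cells *Mcm4* was 0.0671 with no gate and 0.64 with the gene list block, and *Slbp* was -0.00975 with DESeq2 size factors, -0.00456 with DESeq2, -0.00733 without a filter and -0.00144 with looser cells. Between lineages *Cdc6* was -0.013 with the replicate block, *Birc5* -0.0219 without high Scrublet scores, and *Aurkb* -0.0114 with stricter cells and -0.0295 without high Scrublet scores. In the interaction *Uhrf1* was -0.68 with the gene list block. For *Prg4*+ cells *Pcna* was 0.10 with a *Prg4* minimum of 10 and *Gins2* -0.27 with DESeq2. For *Lrrc15*+ *Adam12*+ cells thinned gates gave *Nusap1* -0.50, *Birc5* -0.16, *Ccnb1* -0.51, *Hmgb2* -0.53, *Smc4* -0.085, *Mcm2* -0.27 and *Cdc6* 0.13, and *Cdc6* was 0.00787 with DESeq2 size factors and 0.0424 with stricter cells. The cause was not tested.

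Without 1 library, fold changes in Tom+ cells ran from -0.00419 to 0.34 for *Mcm4*, -0.0153 to 0.14 for *Slbp* and -0.14 to 0.31 for *Cdc6*. In Tom-GFP+ cells they ran from -0.62 to 0.36 for *Mcm4* and -0.19 to 0.23 for *Slbp*. Between lineages they ran from -0.19 to 0.23 for *Cdc6*, -0.83 to 2.78 for *Birc5* and -0.77 to 2.35 for *Aurkb*. In the interaction they ran from -5.77 to 0.70 for *Kif23*, -1.54 to 5.86 for *Hells*, -0.63 to 1.55 for *Uhrf1* and -0.68 to 1.08 for *Rrm1*. For *Prg4*+ cells they ran from -0.47 to 0.44 for *Smc4*, -1.13 to 0.33 for *Gins2* and -0.0382 to 1.32 for *Birc5*, and for *Lrrc15*+ *Adam12*+ cells from -0.60 to 1.10 for *Mcm2*, -0.41 to 0.00622 for *Mcm7* and -0.41 to 0.41 for *Cdc6*.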
